A study of Mus musculus with 32 samples.

Results

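The resident macrophages (MΦs) of untreated islets were compared with the β cells and endothelial cells (ECs) of the same kind of islet. They form 4 of the 32 samples of the series. The comparison took these 4 MΦ samples, 4 β cell samples, and 4 EC samples, all No Dox, and each cell type was its own group. Mice carried 3 transgenes, which every group here shared: MIP-GFP (green fluorescent protein under the mouse *Ins1* promoter), RIP-rtTA (a doxycycline-responsive activator under the rat *Ins2* promoter, active in β cells), and TetO-VEGF-A (human VEGF-A). No Dox mice were never given doxycycline, so the human VEGF-A transgene was not switched on, and the mice were on a C57BL/6 background and 8 to 16 weeks old when experiments began. Handpicked islets were dispersed and sorted: MΦs were the CD11b+ cells, ECs the CD31+ cells, and β cells the GFP+ cells without either antigen. Islets of several mice went into each sample, and the study describes the samples of a group as biological replicates, so the p-values below measure the spread between such pools. CD11b is also found on other myeloid cells, and a CD11b gate therefore need not hold MΦs alone.

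Macrophages are phagocytes of the innate immune system that engulf dying cells and microbes, present antigen on MHC class II, and release cytokines and growth factors. The receptor CSF1R, through which the cytokine CSF1 keeps these cells alive, and the transcription factor PU.1 define the lineage. In healthy islets they lie close to capillaries and β cells.

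The values are normalized scores, rounded to whole numbers, and 1 is the lowest score a gene can have. A score is not corrected for gene length, so scores are compared here between cell types for 1 gene at a time and not between genes. Differences are given on the log2(score + 1) scale, on which 1 unit is a 2-fold difference. A gene was called at a 2-fold or larger difference and a Benjamini-Hochberg adjusted p under 0.05 in limma, over 16380 genes whose mean score was at least 20 in 1 or more of the 3 cell types. In sorted bulk samples, fewer cells of a type and less RNA per cell cannot be told apart.

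The sort was checked first, and these genes are no finding. *Itgam*, which encodes CD11b, had scores of 38275, 29382, 45478, and 32274 in the 4 MΦ samples, from 21 to 50 in β cells, and from 3 to 44 in ECs. *Pecam1*, which encodes CD31, scored from 997 to 1412 in MΦs and from 61523 to 75751 in ECs. Summed scores of 12 macrophage markers made up 2.30% to 3.66% of the MΦ samples. They made up at most 0.0225% of the EC samples and 0.0948% of the β cell samples.

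Some libraries stood apart. Summed scores of 12 acinar enzymes of the exocrine pancreas were 116034, 13154158, 31816, and 2269909 in MΦ replicates 1 to 4, so that they took 24.6% of MΦ replicate 2. They were also high in EC replicate 2 and in β cell replicates 1, 3, and 4, up to 29.4% of a sample. Summed scores of 12 β cell markers were 8773048, 5671053, 1687979, and 647301 in β cell replicates 1 to 4, from 22.5% down to 1.49% of a sample. β cell replicates 3 and 4 carried summed stromal marker scores of 153817 and 540417, against 1031 and 1125 in replicates 1 and 2. Their summed macrophage marker scores were 21684 and 41209, against 2244 and 1172. In replicates 3 and 4 most of that sum was *Cd74*: the other 11 markers summed to 1140, 563, 1978, and 6559 in β cell replicates 1 to 4, 213992 to 348704 in MΦs, and 5644 to 6490 in ECs. None of the 12 acinar markers passed the test in either contrast, and their median difference from β cells went from -1.40 to 1.56 without β cell replicates 3 and 4. Of 10 stromal markers 0 were higher in MΦs than in both cell types, and 5 were without β cell replicates 3 and 4, where their median difference from β cells went from -1.54 to 3.09. Their part in the other results was not tested. The counts over all genes are also given without these libraries, and those of several gene lists are given where they moved. Rank correlations across genes were 0.927 to 0.974 among MΦ samples, 0.740 to 0.973 among β cell samples, and 0.985 to 0.992 among EC samples. They were 0.670 to 0.699 between MΦs and ECs, and 0.543 to 0.716 between MΦs and β cells.

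**Figure D1:**
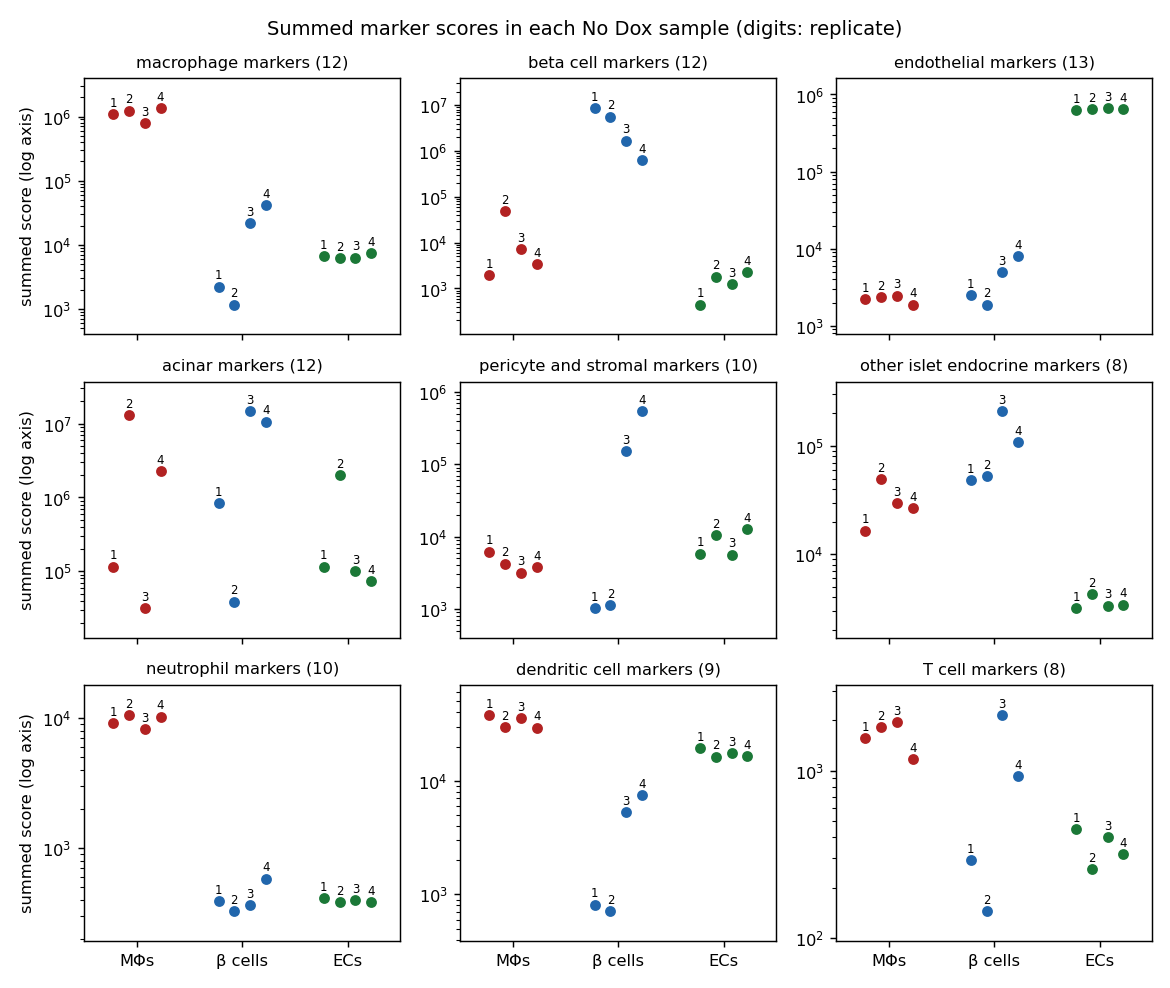
Summed scores of 9 marker lists in each No Dox sample (y axis, log scale), with 1 point a sample, the replicate number beside it, and the number of listed genes in brackets. Macrophage markers are high in all 4 MΦ samples, acinar markers vary within every cell type and reach 13154158 in MΦ replicate 2, and the stromal and macrophage marker sums, the latter mostly *Cd74*, are raised in β cell replicates 3 and 4.

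MΦs stood apart from both other cell types in the same direction at several groups of genes. Of the 16380 genes tested, 1791 (10.9%) were higher in MΦs than in both β cells and ECs, and 1272 (7.77%) were lower than in both. Against β cells alone, 3220 genes (19.7%) were higher and 3852 (23.5%) lower. Against ECs alone, 2880 (17.6%) were higher and 2600 (15.9%) lower. Without β cell replicates 3 and 4, 2037 genes were higher than in both and 1237 lower, of which 1696 and 1091 were among the genes above. Without these and MΦ replicate 2, the counts were 2083 and 1478.

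The higher genes stood further from the other cell types than the lower genes did. The nearer difference, which is the smaller of a gene's 2 differences, was 16-fold or more for 619 of the higher genes and 265 of the lower ones, and 256-fold or more for 94 and 2. All 4 MΦ scores lay above every β cell and EC score for 1674 of the 1791 higher genes, where this held for 14.9% of all genes tested. For 1001 of the 1272 lower genes they lay below every other score, which held for 8.93% of all genes. MΦs fell between the other cell types at a smaller group of genes: 125 were higher than in β cells and lower than in ECs, and 306 the reverse. The median difference over all genes was -0.12 against β cells and 0.01 against ECs. Quantile normalization moved the first to 0.05. It reversed no direction of a gene named below where the difference passed with or without it.

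**Figure D2:**
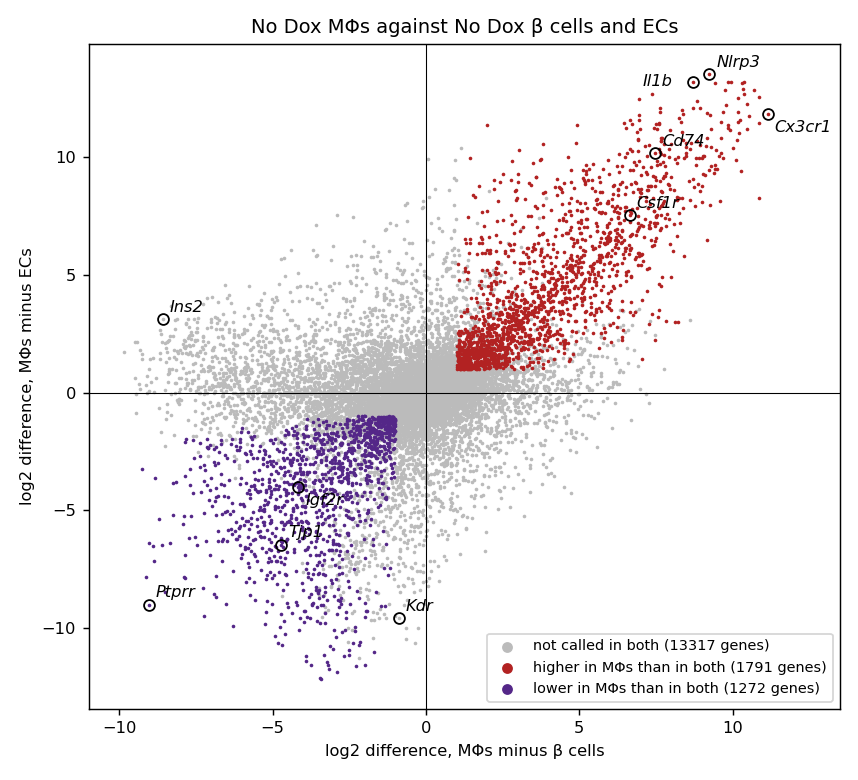
Log2 difference of MΦs from β cells (x axis) and from ECs (y axis) for the 16380 genes tested, 1 point a gene. The 1791 genes higher than in both (red) reach further from 0 than the 1272 lower than in both (purple), and *Ins2* and *Kdr* mark genes of the other cell types.

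The 15 genes that stood furthest above both cell types were *Cx3cr1*, *C1qb*, *Klra2*, *Ccl3*, *Mgl2*, *Tlr7*, *Ms4a7*, *Cd33*, *Tnip3*, *Emr1*, *Lilrb4*, *Itgam*, *Pla2g7*, *Sirpb1b*, and *C1qc*. *Cx3cr1*, the fractalkine receptor of tissue macrophages and monocytes (mm9 chr9:119957811-119977400), had MΦ scores of 14051, 12083, 15316, and 13615, β cell scores of 1, 3, 4, and 33, and EC scores of 3, 1, 3, and 5. The 4 MΦ samples were alike and the other 8 sat near the lowest score. Its difference was 11.14 ± 0.74 (SE, n = 4 per group) from β cells and 11.85 ± 0.74 from ECs, with adjusted p of 4.1e-07 and 1.4e-07. Where the other cells are near 1, a difference depends on the constant added before taking logs: with 20 in place of 1 these became 8.94 and 9.22.

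*Emr1* encodes F4/80, the antigen most used to mark mouse macrophages (mm9 chr17:57498109-57622952). Its MΦ scores were 34058, 26696, 36870, and 26208, against 28, 9, 5, and 180 in β cells and 6, 5, 2, and 1 in ECs. *Cd33*, a sialic acid-binding receptor, scored from 30969 to 35056 in MΦs, from 8 to 200 in β cells, and from 1 to 6 in ECs. *Ms4a7* scored from 10151 to 11040, and *Pla2g7*, the platelet-activating factor hydrolase, from 5534 to 6258. No MΦ score of these genes overlapped another cell type. In β cells the highest score of *Emr1*, *Cd33*, *Ms4a7*, and *Pla2g7* was that of replicate 4, the library with the highest macrophage marker sum among the β cells. *Klra2*, *Sirpb1b*, *Lilrb4*, and *Mgl2* belong to families of closely similar genes, and their scores are uncertain where reads could be split between them.

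Promoters of the genes higher in MΦs are shown for a short motif of the kind bound by PU.1, GAGGAAG, searched on both strands (CTTCCTC on the other). The windows, from RefSeq on GRCm38.p6, run from 250 bases before to 50 bases after each start site. Among all 32851 windows given there, 13.6% held the motif. It was in 19.5% of the 1628 windows that matched 1251 of the genes higher in MΦs, and in 11.9% of the 1144 windows that matched 851 of the lower genes. A match is a description of the letters and not a bound site. Of the 15 genes above, 12 had a window, and the 3 below, other than the sort gene *Itgam*, held the motif, shown in capitals on the strand of the gene and ending 220, 159, and 188 bases before the start site.
*Cd33*, chr7:43533122-43533421, minus strand: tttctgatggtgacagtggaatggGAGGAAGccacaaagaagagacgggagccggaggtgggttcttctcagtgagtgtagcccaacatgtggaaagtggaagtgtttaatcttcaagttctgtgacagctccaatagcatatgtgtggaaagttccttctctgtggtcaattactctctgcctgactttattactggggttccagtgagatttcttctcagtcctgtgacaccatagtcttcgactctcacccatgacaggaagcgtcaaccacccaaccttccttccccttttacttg
*Tnip3*, chr6:65590148-65590447, plus strand: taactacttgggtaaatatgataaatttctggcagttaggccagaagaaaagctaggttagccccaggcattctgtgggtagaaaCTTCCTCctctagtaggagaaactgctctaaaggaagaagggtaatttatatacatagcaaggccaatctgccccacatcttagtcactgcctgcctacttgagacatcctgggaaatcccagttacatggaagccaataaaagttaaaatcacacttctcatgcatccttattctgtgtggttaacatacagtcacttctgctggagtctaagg
*C1qc*, chr4:136892865-136893164, minus strand: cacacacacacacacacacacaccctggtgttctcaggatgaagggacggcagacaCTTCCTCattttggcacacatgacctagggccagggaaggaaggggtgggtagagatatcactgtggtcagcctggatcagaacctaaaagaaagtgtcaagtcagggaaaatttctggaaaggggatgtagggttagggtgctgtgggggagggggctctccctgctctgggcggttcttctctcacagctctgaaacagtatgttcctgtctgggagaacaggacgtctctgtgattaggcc

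*Csf1r* and *Cd74* were both far higher in MΦs. *Csf1r* (mm9 chr18:61265226-61291803) had scores of 60872, 54993, 38674, and 65946 in MΦs, 331, 186, 588, and 2366 in β cells, and 317, 279, 273, and 287 in ECs. Its difference was 6.64 ± 0.59 (SE) from β cells and 7.54 ± 0.59 from ECs, with adjusted p of 3.3e-06 and 8.4e-07. *Cd74*, the invariant chain that escorts MHC class II molecules (mm9 chr18:60963502-60972300), scored 807364, 929279, 577723, and 1012437 in MΦs, 1104, 609, 19706, and 34650 in β cells, and 652, 652, 683, and 876 in ECs. MΦ replicate 3 was the lowest of its group for both genes, and β cell replicate 4 was the highest of its own. The difference of *Cd74* from β cells was 7.46 ± 1.06, and 9.95 without β cell replicates 3 and 4.

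Of the 24 members of the CSF1 axis and transcription factors of the macrophage lineage, 13 were higher than in both cell types and 0 lower, where 10.9% and 7.77% of all genes were, as for each list that follows, with median differences of 4.08 from β cells and 3.46 from ECs. *Sfpi1*, which encodes PU.1, had scores of 13702, 12600, 10214, and 12852 in MΦs, 1, 5, 271, and 413 in β cells, and from 4 to 22 in ECs. *Cebpa*, a partner of PU.1 in myeloid cells, scored from 3062 to 5257 in MΦs, from 150 to 203 in β cells, and from 25 to 41 in ECs. *Spic*, a PU.1 relative of iron-recycling macrophages, was also higher than in both, with MΦ scores of 544, 1118, 1903, and 1002.

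*Irf8* and *Maf* did not pass against ECs in the fit of all 3 groups although their MΦ scores overlapped no EC score. *Irf8*, a factor of monocytes and dendritic cells, scored from 3986 to 4586 in MΦs and from 474 to 634 in ECs, with a difference of 2.91 and an adjusted p of 0.20. *Maf* scored from 10511 to 14597 in MΦs and from 889 to 1096 in ECs. The shared spread in this fit is set in part by the β cells, where *Irf8* was 15, 1, 1298, and 1725. With MΦs and ECs alone in the fit, the adjusted p of *Irf8* was 3.4e-08 and that of *Maf* 1.2e-08. *Fli1* and *Mef2c*, which ECs use as well, were higher than in β cells and did not pass against ECs, at 8807 to 10288 and 21617 to 25356 in ECs against 10774 to 13743 and 15482 to 22386 in MΦs. The ligands of CSF1R did not pass in either contrast: *Csf1* scored from 483 to 852 in MΦs and from 742 to 828 in ECs, and *Il34* from 20 to 85 against 150 to 279.

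Surface and tissue markers of macrophages were nearly all higher. Of 25 members, 22 were higher in MΦs than in both cell types and 0 lower, and the medians were 7.62 and 8.62. *Mrc1*, the mannose receptor CD206, scored 52243, 41601, 56747, and 38848 in MΦs, at most 598 in β cells, and at most 66 in ECs. *Itgax*, which encodes CD11c and marks islet macrophages and dendritic cells, scored from 14000 to 18560, while its β cell scores were 1, 1, 526, and 664. *Ccr2*, the receptor that brings monocytes into tissue, scored from 16941 to 24024, and *Cd163*, a haemoglobin scavenger, from 6247 to 8777. Lysozyme, *Lyz2*, scored from 71749 to 154865, and *Trem2*, a lipid-sensing receptor, from 1540 to 2407.

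The other 3 members of this group did not pass against ECs. *Mertk*, the receptor for dying cells, had MΦ scores of 10018, 7712, 7691, and 9455 and EC scores of 5471, 5032, 5143, and 5904. The groups did not overlap, but the difference was 0.69, under the 2-fold limit. *Lyve1*, a hyaluronan receptor of some vessel-associated macrophages, scored from 309 to 648 in MΦs and from 166 to 414 in ECs, and *Folr2* from 7 to 153 and from 33 to 37. *Retnla*, often used as a sign of alternative activation, scored 85, 19, 122, and 57 in MΦs and was listed at 1, the lowest score, in all β cell and EC samples.

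**Figure D3:**
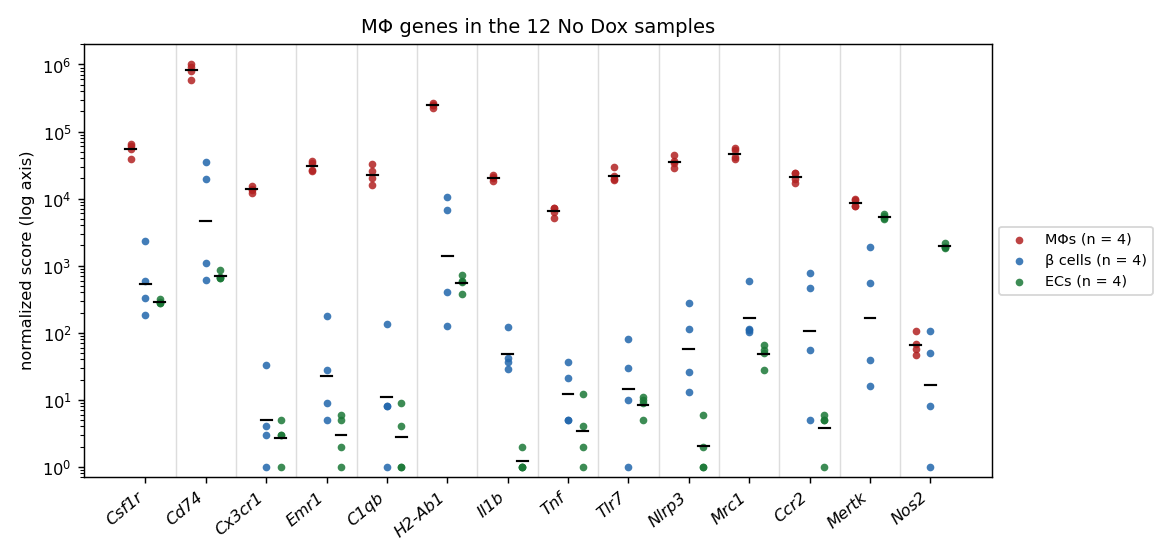
Normalized scores (y axis, log scale) of 14 genes in the 12 No Dox samples, with 1 point a sample and bars at the mean of log(score + 1). MΦ scores (red) lie above all β cell (blue) and EC (green) scores for the first 13 genes, and *Nos2* is highest in ECs.

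MHC class II genes were nearly all higher. Of the 15 genes of this pathway, 14 were higher in MΦs than in both cell types and 0 lower, with medians of 6.37 and 8.17. *H2-Ab1*, a chain of the I-A molecule, scored 249225, 224262, 247381, and 264928 in MΦs, 411, 124, 6760, and 10469 in β cells, and 382, 569, 599, and 736 in ECs. *H2-Aa* and *H2-Eb1* scored from 113151 to 269819 and from 65868 to 119361 in MΦs. *Ciita*, the factor that switches the pathway on, scored from 16340 to 27656 in MΦs, from 32 to 1144 in β cells, and from 165 to 340 in ECs. The protease that trims the invariant chain, *Ctss*, scored from 33906 to 53977 and at most 443 elsewhere.

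Costimulatory genes split. *Cd86* scored 107382, 80371, 128290, and 86876 in MΦs, at most 3030 in β cells, and at most 51 in ECs. *Cd80* scored from 4344 to 7357 in MΦs and at most 600 in the other samples. *Cd40*, the receptor for T cell help, was the 1 listed gene that did not pass in both: MΦ scores were 1797, 1652, 4398, and 1639, EC scores ran from 653 to 872, and the adjusted p against ECs was 0.21 in the fit of all 3 groups and 0.0017 with MΦs and ECs alone.

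The C1q chains and the Fc receptors were among the higher genes, and 7 complement genes did not pass in both contrasts. Of 21 genes in this group 14 were higher in MΦs than in both cell types and 0 lower. Without β cell replicates 3 and 4 the count of higher genes was 17. The chains of C1q, which tags debris for uptake, gave *C1qb* scores of 20480, 25549, 15678, and 32970 in MΦs, against 8, 8, 1, and 134 in β cells and at most 9 in ECs. *C1qc* scored from 10385 to 20685, and *C1qa* from 894 to 7958. MΦ replicate 3 was lowest and replicate 4 highest for all 3 chains. Fc receptors were higher too: *Fcgr2b*, the inhibitory receptor for IgG, scored from 19894 to 22248 in MΦs, *Fcgr3* from 4792 to 6620, *Fcgr1* from 2309 to 3046, and *Fcgr4* from 830 to 1377. Their adaptors *Fcer1g* and *Tyrobp* scored from 15799 to 21868 and from 8722 to 17477, and *Syk*, the kinase below them, from 50633 to 72292. *C3*, the central complement protein, scored from 2684 to 4336 in MΦs and 9 to 65 in ECs, but β cells scored 1037, 620, 4405, and 10701. For *C3*, β cell replicates 3 and 4, which also carried the stromal markers, lay within or above the MΦ range.

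Sensors of microbes and damage were higher in 20 of 28 cases, and 0 were lower than in both. *Tlr7*, a receptor for single-stranded RNA, scored 18625, 19664, 29094, and 21396 in MΦs, 10, 1, 30, and 81 in β cells, and from 5 to 11 in ECs. *Nlrp3*, the inflammasome sensor, scored 36764, 28202, 45009, and 34479 in MΦs, 13, 26, 113, and 275 in β cells, and 6, 1, 1, and 2 in ECs. *Clec7a*, the β-glucan receptor dectin-1, scored from 17670 to 23362, and *Clec4d* from 4259 to 10455. *Tlr2* scored from 12750 to 19695 in MΦs, at most 745 in β cells, and at most 362 in ECs.

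Against ECs some sensors did not pass or were lower. *Tlr4*, the lipopolysaccharide receptor, scored 4175, 3740, 4530, and 3521 in MΦs and from 1978 to 2160 in ECs, and the difference of 0.95 did not pass. *Tlr3*, a sensor of double-stranded RNA, scored from 1457 to 1806 in MΦs and from 2413 to 2840 in ECs. *Nod1*, a sensor of bacterial cell walls, was lower in MΦs than in ECs, at 1133 to 1765 against 2677 to 3302, with a difference of -1.12 and an adjusted p of 0.0013. *Casp1*, the inflammasome protease, was higher than in both, at 2190 to 3419 against 312 to 410 in ECs and at most 92 in β cells.

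MΦs of untreated islets held transcripts of inflammatory cytokines and chemokines. Of 33 such genes tested, 26 were higher in MΦs than in both cell types and 0 lower, and the medians were 5.63 and 7.11. *Il1b* had scores of 22677, 18112, 21086, and 20589 in MΦs, 29, 42, 36, and 121 in β cells, and 1, 1, 2, and 1 in ECs. Its difference from β cells was 8.71 ± 0.43 (SE) and that from ECs 13.18 ± 0.43, with adjusted p of 6.1e-08 and 1.4e-09. *Tnf* scored 5176, 6267, 7279, and 7358 in MΦs and at most 36 in any other sample. Chemokines were among the higher genes: *Ccl3* scored from 14790 to 23460, *Ccl4* from 9045 to 13351, *Cxcl2* from 10409 to 19297, and *Ccl2* from 2890 to 3602 in MΦs.

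The 7 cytokine genes that were not higher than in both cell types were *Il6*, *Il10*, *Il15*, *Il23a*, *Cxcl1*, *Cxcl12*, and *Cx3cl1*. *Cxcl1*, a chemokine for neutrophils, scored from 560 to 993 in MΦs, 10, 1, 375, and 1071 in β cells, and from 79 to 155 in ECs. *Il10*, an anti-inflammatory cytokine, scored 2374, 2127, 3243, and 1032 in MΦs and 702, 303, 355, and 336 in ECs, with an adjusted p of 0.12 against ECs in the fit of all 3 groups and 4.1e-04 with MΦs and ECs alone. *Il6* was low in MΦs, at 51 to 97, while β cells scored 1, 1, 200, and 882. *Il12b*, a subunit of IL-12 and IL-23 that was higher than in both, scored from 1380 to 1598 in MΦs and 1, 1, 913, and 730 in β cells, and its adjusted p against β cells was 0.030, and 0.074 with MΦs and β cells alone in the fit. *Cxcl12* and *Cx3cl1*, the ligand of CX3CR1, were lower in MΦs than in ECs, at 2 to 123 against 2867 to 3938 and 337 to 514 against 2512 to 3283.

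Receptors for chemokines and cytokines were higher in 23 of 27 cases and lower in 1. *Csf2ra* and *Csf2rb*, the chains of the GM-CSF receptor, scored from 17309 to 29474 and from 8990 to 10734, and *Csf2ra* was also present in β cells at 1859 to 2929. *Il1r2*, a decoy that binds IL-1 without signalling, scored 16003, 9731, 11967, and 11468 in MΦs, from 113 to 161 in β cells, and from 1 to 16 in ECs. *Il1r1*, the signalling receptor for IL-1, ran the other way. Its scores were 631, 1181, 1259, and 701 in MΦs, 110630, 103924, 30528, and 12948 in β cells, and 3804, 4362, 4519, and 4419 in ECs. *Il1r1* differed in MΦs by -5.68 ± 0.57 (SE) from β cells and -2.24 ± 0.57 from ECs, with adjusted p of 8.7e-06 and 0.0073. *Il6ra* was higher in MΦs than in both, but β cells scored 9693, 10877, 4285, and 2665 beside 12988 to 17310 in MΦs. The scores of 4285 and 2665 came from the β cell libraries that carried the stromal markers. Every MΦ score was less than 2-fold above the other β cell scores, so the call against β cells rests on the stromal-marked libraries. Without those libraries 22 of the 27 genes were higher than in both cell types.

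The list of efferocytosis and scavenger genes holds receptors, bridging ligands, and cytosolic genes of engulfment. Of 23 tested, 8 were higher in MΦs than in both cell types, where 10.9% of all genes were, and 0 were lower. Against ECs alone 5 were lower, near the 15.9% of all genes. *Axl*, a receptor for phosphatidylserine bridged by GAS6, scored from 37820 to 43042 in MΦs, 64, 42, 3935, and 11878 in β cells, and at most 267 in ECs. *Msr1*, scavenger receptor A, scored from 4183 to 6626 and at most 20 in the other samples. *Stab1*, a receptor of macrophages and of sinusoidal endothelium, scored 21957, 19680, 14343, and 21175 in MΦs and 6874 to 7173 in ECs. *Cd93* was higher than in β cells and lower than in ECs, at 9675 to 11553 against 86144 to 97175 in ECs. Of the bridging ligands, *Mfge8* was lower than in ECs and *Gas6* did not pass (adjusted p = 0.058): *Gas6* scored from 241 to 864 and *Mfge8* from 116 to 261, while ECs scored from 5067 to 7200 and from 4065 to 5243. Against β cells *Mfge8* had a difference of -0.69, which was 2.63 without β cell replicates 3 and 4.

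Of 38 lysosomal genes 24 were higher in MΦs than in both cell types and 1 lower, with medians of 2.26 and 1.67. *Cd68*, a lysosomal membrane protein of phagocytes, scored 11219, 12035, 11324, and 11686 in MΦs, from 223 to 501 in β cells, and from 213 to 309 in ECs. Enzymes that every cell needs differed by smaller steps, as for cathepsin D, *Ctsd*, at 20842 to 28041 in MΦs, 5994 to 8948 in β cells, and 6100 to 7797 in ECs. *Lamp1*, a membrane protein of all lysosomes, overlapped in the 3 cell types, at 10206 to 16101 in MΦs, 9850 to 12449 in β cells, and 8800 to 11904 in ECs. *Ctsl* was lower in MΦs, at 847, 2369, 1255, and 2187, against 2719 to 4914 in β cells and 3817 to 5829 in ECs, and without β cell replicates 3 and 4 its adjusted p against β cells was 0.071.

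Most genes of the phagocyte oxidase were higher. Of 12 genes 7 were higher than in both and 1 was lower. *Cybb*, the catalytic subunit of the oxidase, scored 70861, 77593, 118888, and 98240 in MΦs, 61, 43, 76, and 561 in β cells, and from 7 to 20 in ECs. *Ncf1*, a cytosolic subunit, scored from 9640 to 11847. *Cyba*, the membrane partner of *Cybb*, did not pass against ECs in the fit of all 3 groups, with an adjusted p of 0.18, at 740 to 2068 against 193 to 338, and had an adjusted p of 2.3e-04 with MΦs and ECs alone. *Hmox1*, which breaks down haem, was higher, at 2466 to 3422 against at most 273.

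Of the 12 genes of this list 3 were lower in MΦs than in ECs, where 15.9% of all genes were, a nitric oxide synthase gene among them. An arginine transporter gene was lower than in both cell types. *Nos2*, the inducible nitric oxide synthase, scored 58, 46, 69, and 106 in MΦs, 1, 8, 50, and 105 in β cells, and 1863, 2182, 1921, and 1887 in ECs. Its difference from ECs was -4.86 ± 0.98 (SE, adjusted p = 0.0015). *Slc7a2*, a transporter of arginine, was lower in MΦs than in both, at 63, 1162, 386, and 158, against 8585 to 11648 in β cells and 1317 to 1636 in ECs.

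Signalling and cytoskeletal genes of blood cells were higher in all cases but 1. Of 37 members 36 were higher in MΦs than in both cell types and 0 lower, with medians of 6.26 and 7.37. *Ptprc*, which encodes CD45, scored 36625, 27100, 44259, and 36632 in MΦs, 33, 7, 1616, and 1038 in β cells, and from 17 to 32 in ECs. *Laptm5* scored from 23011 to 40184 and *Coro1a*, an actin regulator, from 3546 to 10604. *Inpp5d*, the phosphatase SHIP-1, was the exception against ECs: MΦs scored from 74678 to 102301 and ECs from 12222 to 16797, with an adjusted p of 0.062 in the fit of all 3 groups and 2.2e-07 with MΦs and ECs alone.

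Lipid and iron genes were higher in 14 of 25 cases and lower in 0. *Apoe*, which carries cholesterol out of macrophages, scored 55615, 66244, 47702, and 104445 in MΦs, 168, 19, 1629, and 5274 in β cells, and from 131 to 168 in ECs. *Slc11a1*, an iron transporter of the phagosome, scored from 5166 to 6535 and at most 188 elsewhere. Ferritin, *Fth1*, scored from 43119 to 80513 in MΦs, from 4724 to 9901 in β cells, and from 4361 to 6546 in ECs. *Ptgs2*, the inducible cyclooxygenase, scored from 6181 to 10021, with 5, 8, 427, and 904 in β cells. *Fabp4* was lower in MΦs than in ECs, at 194 to 431 against 14285 to 20153.

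**Figure D4:**
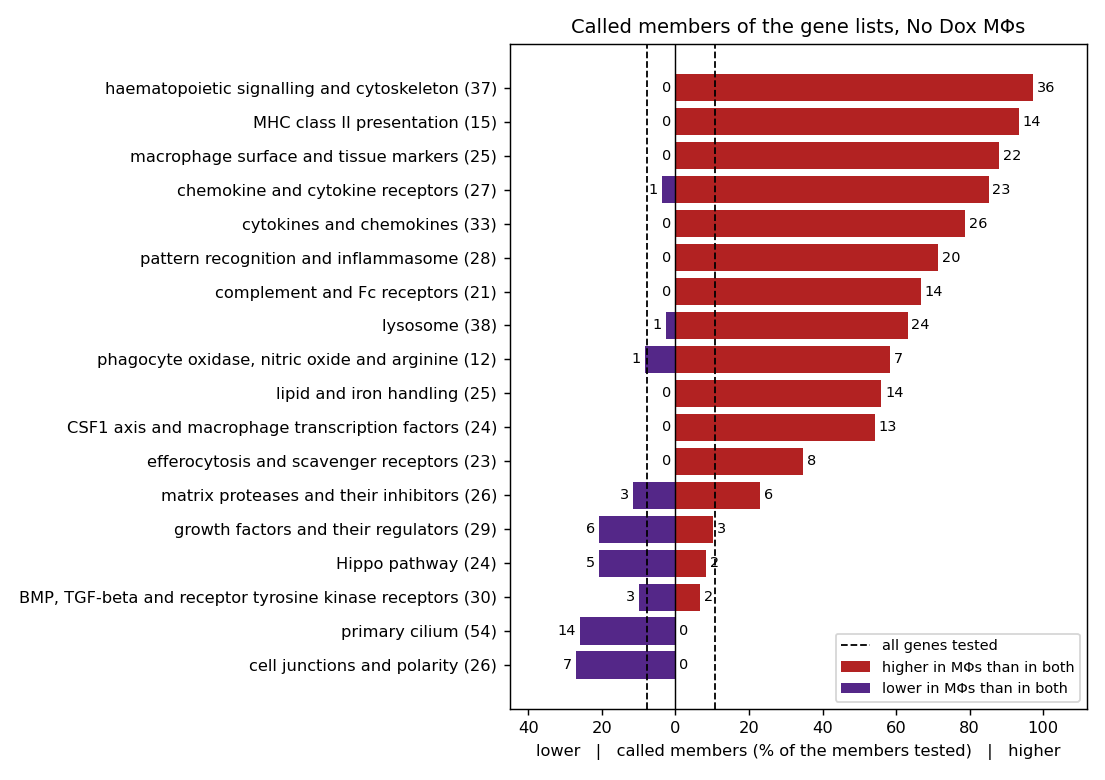
Share of the tested members of each gene list that were higher (red, to the right) or lower (purple, to the left) in MΦs than in both cell types, with the count at each bar, the number tested in brackets, and dashed lines at the shares of all genes tested, 10.9% and 7.77%. Lists of immune genes reach up to 36 of 37 members higher, and cell junctions and the primary cilium have 0 higher members and 7 and 14 lower ones.

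Markers of other leukocytes were also present in the MΦ samples. Of 9 dendritic cell markers 5 were higher in MΦs than in both cell types, where 10.9% of all genes were: *Cd209a* scored from 13291 to 16940 in MΦs and at most 29 elsewhere, *Flt3* from 5443 to 7609, *Siglech* from 2339 to 3248, and *Ccr7* 3315, 1308, 1355, and 973, with *Batf3* as the fifth. *Zbtb46*, a factor of dendritic cells that ECs also use, scored from 2907 to 5410 in MΦs and from 11383 to 13784 in ECs. Among 8 neutrophil markers tested 7 were higher, and 5 without MΦ replicate 2. *Ly6g* and *Camp*, also listed, had a mean score under 20 in every cell type and were not tested. *S100a9* scored 872, 1549, 1815, and 1740 in MΦs and was listed at 1 in the other 8 samples. The summed scores of the 10 listed neutrophil markers ran from 8281 to 10638 in MΦs, of the 9 dendritic cell markers from 29295 to 38109 (16338 to 19420 in ECs and 709 to 7522 in β cells), and of the 12 macrophage markers from 791715 to 1361141. Since *Csf3r* and *Cd74* are each made by more than 1 of these cell types, the sums do not give shares of cells.

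Lymphocyte markers were higher in MΦs than in both cell types at 7 of 20 genes, where 10.9% of all genes were. Natural killer cell genes made up 4 of these, and T and B cell genes 3 of 14. T cell markers summed to between 1176 and 1945 in MΦs, 257 and 446 in ECs, and 144 and 2158 in β cells, where replicate 3 was above every MΦ sample. Of these markers 1 of 8, *Cd4*, was higher than in both (2 without β cell replicates 3 and 4), near the 10.9% of all genes, and *Cd3e* scored 63, 154, 143, and 9. B cell markers summed to between 555 and 1060 in MΦs, 277 and 436 in ECs, and 166 and 562 in β cells, where replicate 4 was within the MΦ range, with 2 of 6 higher (1 without MΦ replicate 2). Natural killer cell markers summed to between 3070 and 4456 in MΦs, 9 and 397 in β cells, and 452 and 654 in ECs. *Ncr1*, a receptor of natural killer cells, scored 635, 182, 64, and 241 in MΦs and at most 5 elsewhere. *Eomes*, a factor of these cells, scored 59, 49, 1, and 82 in MΦs, and *Klrb1c*, which encodes NK1.1, scored 285, 15, 190, and 276. MΦ replicate 3 was lowest for *Ncr1* and *Eomes*, and replicate 2 for *Klrb1c*. *Klrd1* scored 2111, 2350, 2846, and 2901 in MΦs and at most 39 elsewhere. *Ly6c2*, a marker of inflammatory monocytes, had a difference of -0.07 from ECs that did not pass, at 357 to 548 against 347 to 551. Of 7 monocyte markers 5 were higher than in both, *Ccr2* among them. Of 5 mast cell and eosinophil markers tested 1 was higher than in both, where 10.9% of all genes were, and 3 without β cell replicates 3 and 4. The listed markers of these cells summed to between 52 and 248 in MΦs, 7 and 397 in β cells, and 99 and 184 in ECs, so the ranges overlapped. *Mki67*, a marker of cycling cells, scored 8625, 7880, 12226, and 5586 in MΦs and from 1852 to 3545 in ECs, and was 1 of 2 among 8 proliferation markers that were higher than in both, and without β cell replicates 3 and 4 the count was 5.

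Of 29 growth factor genes tested 3 were higher in MΦs than in both cell types, a share near the 10.9% of all genes, and 6 were lower, where 7.77% of all genes were. Without β cell replicates 3 and 4, 3 were higher and 4 lower, since *Bmp6* and *Ltbp1* lost their calls, and the median difference from β cells went from -1.15 to 0.30. *Hgf*, a mitogen for epithelial cells and ECs, scored 3582, 2478, 3648, and 3513 in MΦs, 44, 13, 823, and 1070 in β cells, and from 2 to 12 in ECs. *Pdgfc* scored from 906 to 1588 and *Gdf15*, a stress-induced cytokine, from 412 to 681. *Igf1* did not pass in either contrast: MΦs scored 2586, 5271, 3063, and 2793, ECs from 3900 to 6831, and β cells 107, 18, 2854, and 4359. *Tgfb1* was higher than in β cells, at 5671 to 8121 against 29 to 735, and did not pass against ECs, which scored from 3579 to 3864.

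Mouse *Vegfa*, the EC growth factor, was lower in MΦs than in β cells. It scored 288, 872, 352, and 422 in MΦs, 9490, 10072, 5925, and 3127 in β cells, and from 191 to 281 in ECs. *Pdgfb*, which recruits pericytes, lay between, at 3993 to 5416 in MΦs, 380 to 1038 in β cells, and 10905 to 12561 in ECs. Binding proteins were among the lower genes. *Igfbp5*, a binding protein for insulin-like growth factors, scored 28, 69, 15, and 2 in MΦs, 4149, 3727, 2664, and 4709 in β cells, and from 1099 to 1463 in ECs. *Igfbp7* scored from 263 to 541 in MΦs against 96602 to 147085 in ECs, and *Fgf1* from 6 to 23 against 13484 to 16533. *Hbegf* was also lower than in both, at 59 to 217 in MΦs.

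Matrix proteases known from macrophages were among the higher genes. Of 26 genes 6 were higher than in both cell types and 3 lower, where 10.9% and 7.77% of all genes were, and without β cell replicates 3 and 4 the counts were 11 and 1. The lower genes that lost their call were *Mmp11*, with an adjusted p of 0.25 against β cells, and *Timp3*. *Mmp12*, the macrophage elastase, scored 7315, 6793, 9475, and 6070 in MΦs, from 46 to 94 in β cells, and from 41 to 94 in ECs. *Mmp13*, a collagenase, scored from 3611 to 5226, *Mmp9* from 90 to 337, and *Mmp8* from 149 to 351, with *Mmp8* listed at 1 in every β cell and EC sample. *Plaur*, the urokinase receptor, scored from 10896 to 13398 in MΦs and 1257 to 1739 in ECs, and *Adam8* from 1862 to 2385. Inhibitors differed among themselves. *Timp2* scored from 4059 to 5159 in MΦs and 257, 159, 3648, and 10974 in β cells and did not pass. *Timp1* was lower, at 2 to 5 against 19 to 258 and 69 to 105. *Timp3* scored 589, 743, 195, and 317 in MΦs, 684, 466, 18749, and 62132 in β cells, and from 196505 to 223364 in ECs, and its call against β cells was lost without replicates 3 and 4, with a difference of -0.48 and an adjusted p of 0.37.

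The 15 genes that stood furthest below both cell types were *Ptprr*, *Nav3*, *Pcdhb14*, *Tnfrsf11b*, *Cttnbp2*, *Uchl1*, *Tmem47*, *Mtap6*, *Galntl4*, *Dlg5*, *Tspan8*, *Ehd3*, *Prkd1*, *Hdx*, and *Astn1*. Several are known from neurons or from polarized cells. *Ptprr*, a phosphatase that acts on MAP kinases (mm9 chr10:115455269-115711988), scored 1, 113, 3, and 1 in MΦs, 8135, 8679, 2248, and 901 in β cells, and 3362, 3006, 3634, and 3526 in ECs. *Nav3*, a microtubule-associated protein, scored 26, 6, 2, and 1 in MΦs, from 1539 to 2475 in β cells, and from 1581 to 2495 in ECs. The β cell and EC ranges of *Nav3* overlapped, and no MΦ score came near them. *Uchl1*, a deubiquitinase of neurons and endocrine cells, scored 1, 1, 1, and 4 in MΦs, 368, 229, 608, and 436 in β cells, and from 749 to 845 in ECs.

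*Tnfrsf11b*, which encodes osteoprotegerin, a decoy for the osteoclast factor RANKL, scored 1, 1, 1, and 10 in MΦs, 2037, 1898, 592, and 117 in β cells, and from 536 to 800 in ECs. *Tspan8* scored from 1 to 13 in MΦs, from 1025 to 2416 in β cells, and from 765 to 908 in ECs. *Pcdhb14* and *Astn1* were listed at 1 in all 4 MΦ samples. For *Ptprr*, *Dlg5*, *Cttnbp2*, *Galntl4*, and *Prkd1*, MΦ replicate 2 was the highest of the MΦ samples, at 113, 329, 77, 95, and 209. That replicate also carried the most acinar and islet hormone RNA, and without it 1404 genes were lower than in both, 1168 of the 1272 among them.

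**Figure D5:**
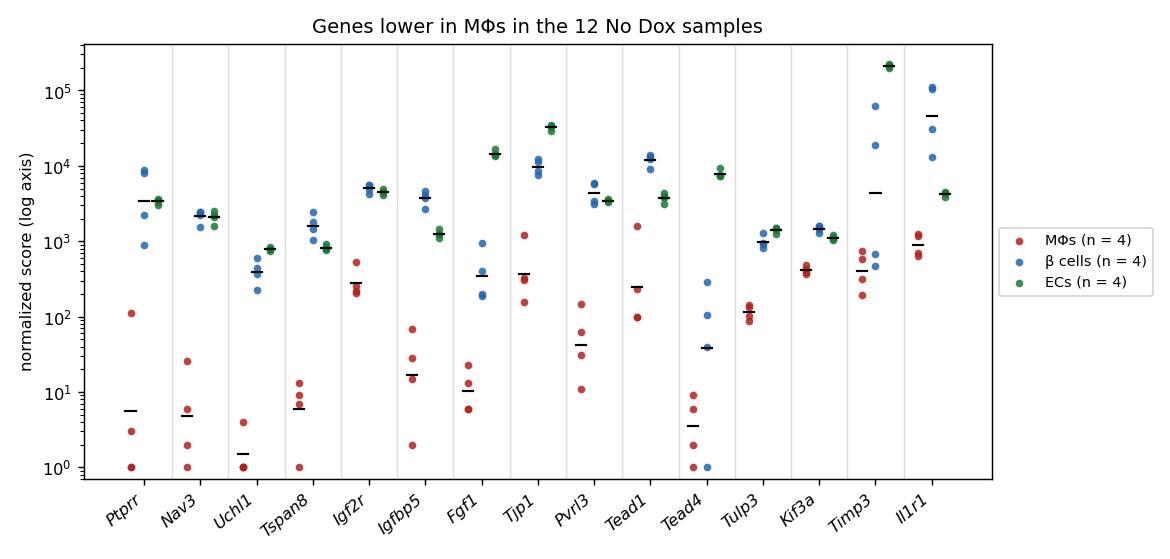
Normalized scores (y axis, log scale) of 15 genes in the 12 No Dox samples, with 1 point a sample and bars at the mean of log(score + 1). MΦ scores (red) lie below most β cell (blue) and EC (green) scores, MΦ replicate 2 is the high point for *Ptprr*, *Tjp1*, and *Tead1*, and β cell scores of *Timp3* and *Tead4* spread down into the MΦ range.

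Of the cell junction and polarity genes, 0 of 26 were higher in MΦs than in both. In this group 7 were lower than in both cell types, where 7.77% of all genes were, and the medians were -2.98 and -1.85. *Tjp1*, the scaffold ZO-1 of tight junctions, scored 325, 1213, 155, and 306 in MΦs, 11409, 12334, 7622, and 8518 in β cells, and from 29226 to 35090 in ECs. *Pvrl3*, the adhesion protein nectin-3, scored from 11 to 146 in MΦs, from 3108 to 6010 in β cells, and from 3298 to 3646 in ECs, and *Mpdz*, a scaffold, from 31 to 307 in MΦs. *Jam2*, *Magi1*, *Pvrl2*, and the EC gene *Cdh5* were the others. E-cadherin, *Cdh1*, and the gap junction gene of β cells, *Gjd2*, were lower than in β cells and higher than in ECs. *Cdh1* scored 400, 2085, 616, and 608 in MΦs and 3581 to 11280 in β cells, and *Gjd2* scored 9 to 47 against 1127 to 3743. *F11r*, which encodes JAM-A and is carried by leukocytes, scored from 5175 to 6892 in MΦs beside 4373 to 5539 in ECs.

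Hippo pathway genes, which restrain growth through a kinase cascade, differed among themselves. Of 24 members 2 were higher in MΦs than in both, near the 10.9% of all genes, and 5 were lower, where 7.77% of all genes were. Without β cell replicates 3 and 4, 2 were higher and 3 lower, which is nearer the share of all genes, and the median difference from β cells went from -0.51 to 1.25. The higher ones were *Stk4*, the kinase MST1, at 9161, 6313, 6546, and 7338 in MΦs, 1189 to 1574 in β cells, and 1469 to 1664 in ECs, and its partner *Mob1a*, at 8395 to 12622 against 764 to 3112 and 4321 to 5570. The lower ones included DNA-binding factors and a coactivator. *Tead1* scored 98, 1609, 99, and 232 in MΦs, 9024 to 13922 in β cells, and 3140 to 4422 in ECs. *Wwtr1*, which encodes the coactivator TAZ, scored from 32 to 120 in MΦs and from 12125 to 14836 in ECs. *Amotl1*, *Amotl2*, and *Tead4* were the other 3, of which *Tead4* had β cell scores of 1, 40, 106, and 289 and lost its call against β cells without replicates 3 and 4 (adjusted p = 0.42), as did *Amotl2* (adjusted p = 0.11). *Yap1* was lower than in ECs, at 84 to 457 against 3636 to 4601, and against β cells its difference was -1.03, and 1.80 without β cell replicates 3 and 4. *Nf2*, an upstream member, scored from 2226 to 2750 in MΦs and from 2217 to 2757 in ECs.

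Primary cilium genes were lower in part. Of 54 members 14 were lower in MΦs than in both cell types, where 7.77% of all genes were, and 0 were higher (1 without β cell replicates 3 and 4, and 1 without MΦ replicate 2). Against β cells alone 34 were lower, where 23.5% of all genes were, and the medians were -1.46 and -0.49. *Tulp3*, which carries receptors into the cilium, scored 88, 136, 142, and 102 in MΦs, from 811 to 1295 in β cells, and from 1258 to 1517 in ECs. The motor subunit *Kif3a* scored from 364 to 481 in MΦs, from 1284 to 1590 in β cells, and from 1025 to 1220 in ECs, whereas its partner *Kif3b*, which also serves in other transport, scored from 2383 to 3572 in MΦs and was higher than in ECs alone. *Bbs1*, of the complex that sorts ciliary membrane proteins, scored from 54 to 144 in MΦs and from 252 to 326 in ECs. *Gli3*, an effector of hedgehog signalling, was lower than in β cells alone, and *Smo*, an upstream signal transducer, did not pass, at 899 to 1093 in MΦs and 236 to 471 in ECs.

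Receptors of the BMP, TGF-β, and tyrosine kinase families were called in both contrasts at shares near those of all genes: of 30 members 2 were higher than in both (10.9% of all genes) and 3 lower (7.77%). Against ECs alone 13 were lower, where 15.9% of all genes were. Without β cell replicates 3 and 4 the median difference from β cells went from -0.77 to 0.04. Beside *Csf1r*, *Tgfbr1* was higher than in both, at 57484, 37296, 43398, and 42420 in MΦs, 1460 to 2286 in β cells, and 2591 to 2948 in ECs. Its partner *Tgfbr2* scored from 10485 to 12799 in MΦs and from 16685 to 20360 in ECs. Of the 3 lower ones, *Igf2r*, which clears IGF2 and sorts lysosomal enzymes, scored 255, 537, 221, and 205 in MΦs, 4296 to 5620 in β cells, and 4067 to 4931 in ECs. The differences of *Igf2r* were -4.18 ± 0.26 (SE) and -4.00 ± 0.26, with adjusted p of 2.7e-07 and 1.8e-07. *Bmpr1a* scored 98, 838, 157, and 409 in MΦs, 5895 to 8049 in β cells, and 1012 to 1548 in ECs, and *Tgfbr3* from 191 to 537 in MΦs. *Insr*, the insulin receptor, scored from 3259 to 4783 in MΦs and 3968 to 4725 in β cells.

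RNA of other cells was measurable in the MΦ samples. *Ins2* scored 756, 15116, 2802, and 1150 in MΦs, 273058 to 2775782 in β cells, and 86 to 559 in ECs, and was higher in MΦs than in ECs by 3.12 ± 0.99 (SE, adjusted p = 0.023). *Gcg*, the glucagon gene of α cells, scored 138, 22058, 5805, and 1869 in MΦs and 7 to 619 in ECs. The acinar gene *Cpa1* scored 11112, 1179137, 4122, and 169983. MΦ replicate 2 was highest for all 3. The EC gene *Kdr* was near its β cell level, at 76 to 236 in MΦs and 168 to 378 in β cells against 92107 to 105159 in ECs, and the stromal gene *Pdgfrb* scored from 145 to 366 in MΦs. Whether this RNA came from taken-up cells, attached cells, or the medium was not tested.

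The separation was looked for in samples that shared no library with these 12. After 1 week of withdrawal following 1 week of Dox (1wk WD; 4 MΦ, 3 β cell, and 5 EC samples), 87.9% of the 1791 higher genes were 2-fold or more above both cell types, where 14.2% of all genes were. Of the 1272 lower genes 86.4% were 2-fold or more below both, where 15.1% of all genes were. After 1 week of Dox (2 MΦ samples, 5 β cell samples, and 1 EC sample), the shares were 88.3% and 83.6%, where 14.0% and 13.3% of all genes were. These are counts of mean differences with no test, and the islets of those samples had been exposed to induced VEGF-A. *Cx3cr1* scored from 12869 to 15275 in 1wk WD MΦs, and *Igf2r* from 184 to 253, both apart from the 1wk WD β cells at 2 to 218 and 6589 to 7201.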

How the data were processed

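RNA of sorted islet cells was amplified with NuGEN Ovation and sequenced. The authors aligned reads with TopHat2 2.0 to mm9 and deposited TMM-normalized values from Avadis NGS, treated here as a score: whole numbers, with 1 as the lowest, so depth is unknown and no count test was run. The annotation version is not given in the sources used here. Of 38 sample columns, 6 matched no sample and were not used.

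Scores were analysed as log2(score + 1) with limma 3.58.1 in R 4.3.3 (moderated test with a trend), 3 groups of 4 in 1 fit, keeping a gene where 1 or more group means reached 20. Calls needed a 2-fold difference and a Benjamini-Hochberg adjusted p under 0.05 over all 16380 genes. Named genes were the 15 furthest above and 15 furthest below both cell types by the smaller difference, and members of listed gene groups. The members and lists were chosen with earlier results of these data known. Simulated data gave all 3 groups the MΦ mean of each gene (14505 genes), with some genes then changed in MΦs. A call in both contrasts recovered 15.7% of genes changed by 1 log2 unit. It recovered 64.2% of those changed by 2 and 68.3% of those changed by 3. Alternatives changed the added constant, filter, scaling, samples, spread model, replicate block, and test. Some members of the lists are counted but not reported by name here.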

Additional observations from a re-analysis of the deposited data

Results flagged for a closer look

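The score of 1 sample lay far from the other 3 of its group, by Dixon's test at 95%, in 39 of the 490 groups of 4 tested over the genes named above, where chance gives about 1 in 20, or 24. The following samples were set apart by their scores. EC replicate 1 had a high score for *Batf3* (171), *Cxcl1* (155), *Il10* (702), *Mtap6* (1874), and *Tead4* (9346). EC replicate 1 had a low score for *Ptprc* (17) and *Tmem47* (3425). EC replicate 2 had a high score for *Cpa1* (177586). EC replicate 4 had a high score for *Cd74* (876). MΦ replicate 1 had a high score for *Ccr7* (3315). MΦ replicate 2 had a high score for *Cdh1* (2085), *Cpa1* (1179137), *Dlg5* (329), *Igf2r* (537), *Ins2* (15116), *Magi1* (3006), *Ptprr* (113), *Tead1* (1609), and *Tjp1* (1213). MΦ replicate 2 had a low score for *Hgf* (2478). MΦ replicate 3 had a high score for *Cd40* (4398), *Clec4d* (10455), and *Cxcl1* (993). MΦ replicate 4 had a high score for *Mmp8* (351). MΦ replicate 4 had a low score for *Il34* (20). β cell replicate 3 had a high score for *Cd3e* (777) and *Cdh5* (291). β cell replicate 4 had a high score for *C1qb* (134), *C1qc* (137), *Cd33* (200), *Cybb* (561), *Emr1* (180), *Gli3* (5321), *Il1b* (121), *Klra2* (169), *Mmp11* (550), *Mpdz* (8556), *Mrc1* (598), and *Slc11a1* (188). MΦ replicate 2 was also the MΦ sample with the highest acinar marker sum (13154158), and β cell replicate 4 was the β cell sample with the highest macrophage and stromal marker sums (41209 and 540417). The part of these sums in the scores listed was not tested.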

How the results depend on the processing

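Of 104 counts recomputed under alternatives, 100 stayed within 1.5 times the reported count. The exceptions all came from testing against a fold of 2 itself, a stricter test by construction, which left 1130 genes higher and 635 lower in MΦs than in both cell types, 4308 different from β cells (7072 reported), and 3383 different from ECs (5480 reported). Leaving out 1 sample at a time gave 1688 to 1883 higher, 1135 to 1404 lower, 6614 to 7450 different from β cells, and 5009 to 5758 different from ECs. Fitting each pair of groups alone gave 1838 and 1087, and adding 20 before logs gave 1827 and 1106. Sign changes were counted only for named genes whose difference passed with or without the samples left out. Without β cell replicates 3 and 4 the difference from β cells changed sign for *Mfge8* (2.63), *Pdgfrb* (1.64), and *Yap1* (1.80). Without these and MΦ replicate 2, a choice made after seeing the data, it was 2.49 for *Mfge8* and 1.59 for *Pdgfrb*, and for *Yap1* it was 1.32 and no longer passed (adjusted p = 0.070). The cause was not tested.

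Same-numbered samples of different groups correlated at -0.194 to 0.384 in their deviations, with 2 of 12 pairs over 0.1. The highest value was that of MΦ replicate 2 with EC replicate 2. Samples with different numbers were not compared, so whether the replicate numbers pair the samples was not tested. With the replicate block 1776 genes were higher and 1219 lower than in both. Depth is unknown from the scores, so no counting error could be given.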
